A study of Mus musculus with 16 samples.

Results

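The 27 genes of cholesterol synthesis and its control by SREBP2 were followed through the duodenum and ileum of mice in which Neurog3, a gene needed to form enteroendocrine cells, was targeted. They were taken by symbol from a fixed list and all 27 were found among the 55359 genes of the count table. By role, 8 code for mevalonate and isoprenoid steps, 3 for the making of squalene and lanosterol, 9 for the conversion of lanosterol to cholesterol, 4 for SREBP2 and its escort and retention proteins, and 3 for sterol transport inside the cell.

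Total RNA was sequenced from both tissues of 8 male mice on a C57BL/6N background, fed standard chow and sampled 18 weeks after tamoxifen. Neurog3 codes for the transcription factor that commits intestinal progenitors to the endocrine lineage. The 4 mutants (animals NFVCT27, NFVCT38, NFVCT153 and NFVCT190) had the genotype Neurog3f/f; Villin-CreERT2, with floxed Neurog3 and a tamoxifen-dependent recombinase under a promoter active in the intestinal epithelium. The 4 controls (NF17, NF29, NF32 and NF152) were Neurog3f/f, so all 8 animals carried the floxed alleles. The controls had no recombinase, and an effect of the transgene and one of Neurog3 loss cannot be told apart; whether controls were given tamoxifen too is not stated separately. The labels do not say which stretch or layers of each tissue were taken, or the exact age. Neurog3 had 0 counts in the 8 mutant libraries and 8 to 37 counts in the 8 control libraries. Total counts ran from 8213889 to 35076714 per library.

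Cells make cholesterol from acetyl-CoA through mevalonate, farnesyl diphosphate, squalene and lanosterol. When sterols in the endoplasmic reticulum run low, SCAP escorts the membrane-bound factor SREBP2 to the Golgi, where it is cut and released to the nucleus, and it then switches on nearly all enzymes of the route; when sterols are plentiful, INSIG proteins hold SCAP and SREBP2 back. In the small intestine the same epithelium takes up cholesterol from food and bile, and the ileum also takes back bile acids.

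The stretch before the start of a gene is where SREBP2 and its partner NF-Y bind, so the 250 bases upstream were read for the members with a RefSeq promoter window (22 of 27, build GRCm38.p6; no window was at hand for Sqle, Fdft1, Fdps, Stard4 and Npc1). The letters searched on both strands were TCACNCCAC and ATCACNCCA, forms of the sterol regulatory element, CCAAT, the core of the NF-Y site, and GGGCGG, the core of the Sp1 site. The first 2 motifs share all but 1 of their letters and can overlap. Among the members, TCACNCCAC was found only in Hmgcs1 (1.05% of all 32851 windows held it) and ATCACNCCA only in Srebf2 (0.712%). CCAAT was found in 20 of the 22 members, against 37.5% of all 27025 genes with a window (33.8% of windows), and GGGCGG also in 20 of 22, against 35.4% of genes (32.7% of windows). A match of letters is a description and does not show binding. The upstream sequences of 5 members are given as examples. Hmgcs1 and Srebf2 held the sterol element letters. Lss, Cyp51 and Msmo1, called in the duodenum, held CCAAT letters but neither of the 2 forms searched. Other forms of the sterol element were not searched, so such an element may still be present. Hsd17b7, also called and with CCAAT letters, is not printed. Sequences run 5′ to 3′ along the gene and end at the base before its start; capitals mark TCACNCCAC, ATCACNCCA and CCAAT, which reads ATTGG where it lies on the other strand. The Sp1 letters are left in lower case.
Hmgcs1 (chr13:119690101-119690350, forward strand): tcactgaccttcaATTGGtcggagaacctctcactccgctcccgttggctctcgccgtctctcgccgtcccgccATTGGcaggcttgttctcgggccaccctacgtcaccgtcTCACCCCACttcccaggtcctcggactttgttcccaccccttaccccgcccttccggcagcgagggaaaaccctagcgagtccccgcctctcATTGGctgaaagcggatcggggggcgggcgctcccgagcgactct
Lss (chr10:76531355-76531604, forward strand): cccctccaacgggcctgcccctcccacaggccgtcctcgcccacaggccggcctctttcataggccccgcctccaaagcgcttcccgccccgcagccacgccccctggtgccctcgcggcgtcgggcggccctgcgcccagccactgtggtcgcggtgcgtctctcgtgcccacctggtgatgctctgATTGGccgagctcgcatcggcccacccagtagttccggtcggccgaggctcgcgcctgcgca
Cyp51 (chr5:4104698-4104947, reverse strand): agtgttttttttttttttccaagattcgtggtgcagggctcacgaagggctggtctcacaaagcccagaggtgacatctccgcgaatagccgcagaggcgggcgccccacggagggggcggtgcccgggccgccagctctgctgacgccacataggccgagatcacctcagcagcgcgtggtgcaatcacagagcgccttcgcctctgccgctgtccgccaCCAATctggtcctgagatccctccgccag
Msmo1 (chr8:64733579-64733828, reverse strand): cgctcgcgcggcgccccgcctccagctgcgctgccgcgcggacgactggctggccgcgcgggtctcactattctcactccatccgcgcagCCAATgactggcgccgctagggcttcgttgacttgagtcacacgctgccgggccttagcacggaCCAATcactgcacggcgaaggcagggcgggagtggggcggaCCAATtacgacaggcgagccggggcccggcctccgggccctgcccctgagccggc
Srebf2 (chr15:82147019-82147268, forward strand): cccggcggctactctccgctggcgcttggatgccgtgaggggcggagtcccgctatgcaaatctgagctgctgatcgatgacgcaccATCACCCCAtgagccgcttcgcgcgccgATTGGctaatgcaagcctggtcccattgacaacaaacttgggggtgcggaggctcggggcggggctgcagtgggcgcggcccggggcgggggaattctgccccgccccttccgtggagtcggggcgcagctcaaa
In Hmgcs1 the sterol element letters began 137 bases before the start, and CCAAT letters began 237, 176 and 45 bases before it. In Srebf2 the sterol element letters began 163 bases before the start and CCAAT 135 bases before it. Cyp51 held 1 CCAAT, 29 bases before its start, Lss 1 at 62 bases, and Msmo1 held 3, at 160, 96 and 55 bases.

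Levels are given as CPM, counts scaled to the size of each library with TMM factors from all 16 libraries, and as mean ± SD over the 4 libraries of a group. A gene was called where the adjusted p of edgeR's quasi-likelihood test, corrected by Benjamini-Hochberg over all genes tested, was under 0.05; SE is the standard error of a log2 fold change. Some libraries stood apart. Pancreatic acinar genes took 14.7% of counts in duodenal control NF17 and 18.9% in duodenal mutant NFVCT190, with 1.81 to 12.0% in the other 6 duodenal libraries, so the groups overlapped. In the ileum that share was at most 0.843%. None of 15 acinar genes was called by genotype. As for the tissue labels, markers of the distal small intestine summed to 2094 to 6089 CPM in ileal and 88.1 to 268.1 CPM in duodenal libraries, where Fgf15 was at 0 in all 8. Ileal control NF29 was the highest of its group for 18 of the 27 members, a description only, as no share over all genes is given for it. Counting is uncertain for Acat2, which shares 39.1% of its 50-base stretches with other genes, mostly Acat3, and for Idi1 (25.3%), Fdps (26.2%, mostly the overlapping Gm43738) and Fdft1 (26.5%, mostly Ctsb on the opposite strand, with 140855 counts against 14691 for Fdft1). Tm7sf2 overlaps Vps51 on the same strand over 12.1% of its exon bases. Idi1 had 619 counts and Fdps 1923 over all 16 libraries.

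In the mutant duodenum 5 enzymes of the route from squalene to cholesterol rose. Cyp51, Sqle, Msmo1, Lss and Hsd17b7 were the 5 of 27 members called higher, against 0.0952% of all 14703 genes tested, and none was called lower (0.299% of all genes). The log2 fold change was above 0 for 25 of the 27, with a median of 0.72, while the median over all genes was 0. In 12 members every mutant library lay above every control library (2.77% of all genes). An unadjusted p under 0.05 with a value above 0 was found in 18 members (3.69% of all genes). These counts describe the list in bulk tissue, where more cells of a type and more RNA per cell cannot be told apart.

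Among the mevalonate and isoprenoid genes, none of the 8 was called, 7 were above 0 and the median was 0.90. Hmgcs1, which makes HMG-CoA from acetoacetyl-CoA, was at 125.9, 139.4, 130.4 and 110.3 CPM in control duodenum (NF17, NF29, NF32, NF152) and at 154.7, 266.7, 341.4 and 315.7 CPM in mutants (NFVCT27, NFVCT38, NFVCT153, NFVCT190). All 4 mutants were above all 4 controls, NFVCT27 by the least. The log2 fold change was 1.08 (SE 0.21), short of the threshold (adjusted p = 0.0603).

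The kinases Mvk and Pmvk, which phosphorylate mevalonate in turn, differed by 1.01 (SE 0.19, adjusted p = 0.0523) and 0.78 (SE 0.18, adjusted p = 0.105). Mvk stood at 11.9 to 15.5 CPM in controls and 21.4 to 39.5 CPM in mutants, without overlap. For Pmvk, 3 of the 4 mutants were above the highest control, and NFVCT190 (19.4 CPM) was just below control NF32 (19.5 CPM). Mvd, which decarboxylates the product to isopentenyl diphosphate, was at 9.34 to 12.4 CPM in controls and 15.7 to 33.7 CPM in mutants, again without overlap (1.06, SE 0.23, adjusted p = 0.0906).

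The next enzymes were low or uncertainly counted. Fdps, the farnesyl diphosphate synthase, was at 3.01 ± 0.77 CPM in controls and 6.23 ± 2.37 CPM in mutants (1.07, SE 0.29, adjusted p = 0.189), and Idi1, the isomerase before it, at 1.47 ± 0.74 and 2.35 ± 0.57 CPM (0.72, SE 0.39, adjusted p = 0.674). Acat2, the thiolase at the head of the route, had 4 of 4 mutants above the controls but a smaller difference (15.3 ± 1.9 against 21.7 ± 2.7 CPM, 0.50, SE 0.14, adjusted p = 0.197). Ggps1 makes geranylgeranyl diphosphate for protein prenylation and leads away from sterols. It was the only member whose 4 mutants all lay below the controls (2.98% of all genes did so), at 21.9 to 26.1 CPM against 26.4 to 31.2 CPM (-0.25, SE 0.11, adjusted p = 0.535).

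Of the 3 genes that turn farnesyl diphosphate into lanosterol, 2 were called and all 3 separated the groups. Sqle, the epoxidase and a rate-limiting step of the route, was at 29.4, 41.0, 33.0 and 25.8 CPM in controls and at 60.6, 72.5, 123.8 and 80.5 CPM in mutants. Its lowest mutant was above its highest control, and NFVCT153 was the highest mutant. The difference was 1.38 on the log2 scale (SE 0.22, adjusted p = 0.0317).

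Lss, which closes the ring to lanosterol, was at 15.2, 22.7, 19.9 and 15.97 CPM in controls and 31.8, 36.9, 43.5 and 44.9 CPM in mutants (1.09, SE 0.16, adjusted p = 0.0124). Fdft1, the squalene synthase, was at 17.3 to 23.7 CPM in controls and 29.1 to 67.2 CPM in mutants, with a log2 fold change as large but a wider spread (1.15, SE 0.24, adjusted p = 0.0919). Its counts may include reads of Ctsb, which lies across it.

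All 9 genes of the way from lanosterol to cholesterol were above 0 and 3 were called. Cyp51, the lanosterol demethylase, had the largest log2 fold change of the 27 members. It was at 49.3, 54.3, 51.4 and 42.2 CPM in controls and at 137.7, 139.0, 186.9 and 110.4 CPM in mutants. The groups were far apart, NFVCT153 was the highest mutant, and the log2 fold change was 1.54 (SE 0.16, adjusted p = 0.00135).

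Msmo1, which starts the removal of the last methyl groups of the ring, was at 55.1, 78.8, 52.2 and 51.5 CPM in controls and 142.4, 118.8, 208.0 and 113.2 CPM in mutants (1.29, SE 0.21, adjusted p = 0.0326). Nsdhl and Hsd17b7, which act next in the same demethylation, had equal differences on either side of the threshold: Hsd17b7 was called (0.75, SE 0.14, adjusted p = 0.0471) and Nsdhl was not (0.75, SE 0.14, adjusted p = 0.0523). Both separated the groups, with Hsd17b7 at 19.7 to 27.9 CPM in controls and 35.5 to 44.1 CPM in mutants, and Nsdhl at 14.1 to 19.6 CPM and 25.2 to 31.9 CPM.

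The other genes of this part were not called. The reductases Tm7sf2 and Lbr catalyse the same step. The log2 fold change of Tm7sf2 was 0.83 (SE 0.25, adjusted p = 0.263); that of Lbr, which is also a protein of the inner nuclear membrane, was 0.12 (SE 0.13, adjusted p = 0.894). Tm7sf2 was at 20.9 to 29.3 CPM in 3 mutants and at 10.7 CPM in acinar-rich NFVCT190, against 9.93 to 12.7 CPM in controls. Ebp, the sterol isomerase, also had its lowest value in that library, 58.6 CPM against 100.3 to 106.9 CPM in the other mutants and 77.8 to 93.2 CPM in controls (0.12, SE 0.18, adjusted p = 0.941).

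Dhcr7, the reductase of the last step, had a difference of 0.44 (SE 0.14, adjusted p = 0.27), and Sc5d, the desaturase just before it, one of 0.13 (SE 0.18, adjusted p = 0.936). Whether these genes and Cyp51 or Sqle differed in size of effect was not tested.

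None of the 4 control genes was called. Srebf2, which codes for SREBP2, was at 84.02, 69.7, 80.1 and 67.1 CPM in control duodenum and at 95.3, 112.1, 113.1 and 140.7 CPM in mutants. The groups did not overlap, and the log2 fold change was 0.61 (SE 0.13, adjusted p = 0.0919). Insig1, a retention protein and itself a target of SREBP2, split the mutants: NFVCT153 (148.7 CPM) and NFVCT190 (134.7 CPM) were above every control, while NFVCT27 (60.1 CPM) and NFVCT38 (76.2 CPM) lay among the controls at 57.0 to 80.2 CPM (0.68, SE 0.28, adjusted p = 0.51). Insig2, the other retention protein, was at -0.14 (SE 0.15, adjusted p = 0.902) and Scap at 0.06 (SE 0.10, adjusted p = 0.948).

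Of the transport genes, Stard4, which carries sterols between membranes, was at 86.2 ± 9.75 CPM in controls and 128.4 ± 36.5 CPM in mutants (0.57, SE 0.18, adjusted p = 0.303), with 3 of 4 mutants above the highest control. Npc1 and Npc2, which pass cholesterol out of the lysosome, were at 0.10 (SE 0.13, adjusted p = 0.924) and 0.22 (SE 0.13, adjusted p = 0.727).

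**Figure D1:**
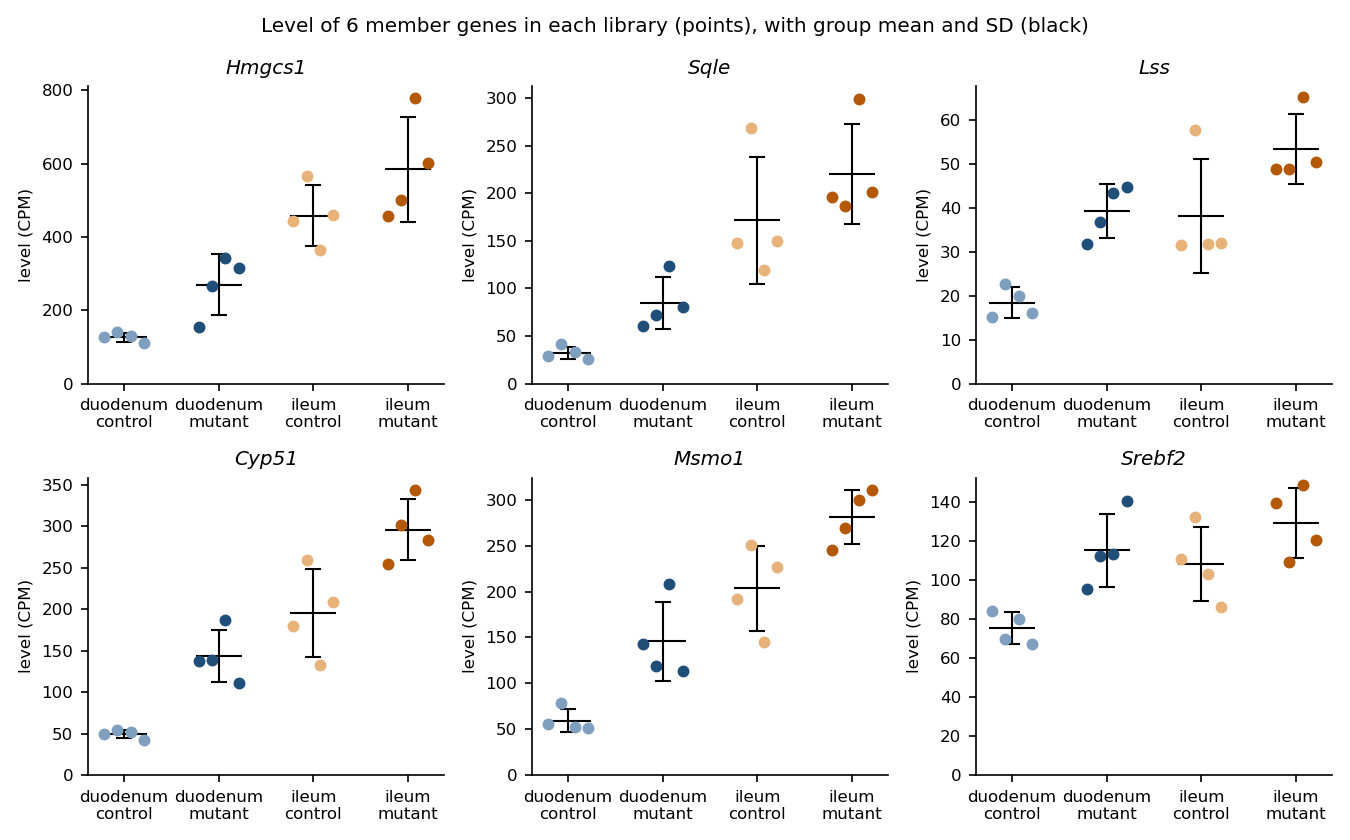
Level of 6 members in CPM (vertical axes) in each of the 16 libraries, by tissue and genotype; points are libraries, black lines the mean and SD of 4. In the duodenum the mutants lie above the controls for all 6 (Cyp51 at 110.4 to 186.9 against 42.2 to 54.3 CPM), and in the ileum the groups overlap.

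The number of duodenal calls turned on single libraries. Cyp51 was called whichever single library was left out, in 8 fits, with adjusted p from 0.000408 to 0.0124. Without control NF17 or control NF152 it was the only member called; without control NF32 or mutant NFVCT38 only Cyp51 and Lss were. Sqle also missed the threshold without mutant NFVCT190, Msmo1 without NFVCT27, and Hsd17b7 in every fit but the one without control NF29; the highest adjusted p values were 0.141, 0.141 and 0.191, and 0.0775 for Lss. Other members passed instead: Hmgcs1 (adjusted p = 0.00459) and Fdft1 (0.0441) without mutant NFVCT27, and Mvk (0.0297) and Tm7sf2 (0.0225) without mutant NFVCT190. Without both acinar-rich libraries, NF17 and NFVCT190, only Cyp51 was called (1.64, adjusted p = 0.00712; 0.0402% of all genes were called higher in that fit), and the log2 fold changes of Sqle, Msmo1, Lss and Hsd17b7 were 1.36, 1.35, 0.93 and 0.71. Adjusted for the acinar score, Cyp51 (1.44, adjusted p = 0.00205) and Lss (1.07, adjusted p = 0.0257) were called (0.0748% of all genes). With the acinar genes left out of the counts, 7 members were called higher, and 65 genes were called in all, in both directions together. The share of all genes called higher is not given for that fit. DESeq2's Wald test called 12 members higher, against 0.618% of all genes.

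Markers of other cells also differed in the duodenum. Of 8 T and NK cell markers 3 were called lower, with a summed level of 208.1 to 263.7 CPM in controls and 48.2 to 115.7 CPM in mutants. Of 8 enterocyte markers none was called, all 8 were below 0 (median -0.56), and they summed to 23350 to 43640 CPM in controls and 12040 to 26410 CPM in mutants. The 6 markers of the proximal small intestine were also all below 0 (median -0.59; 4423 to 13490 CPM against 1900 to 5815 CPM) and none was called. Apoa4 and Fabp1 are in both this list and the enterocyte list, so the lists are not separate. General epithelial markers summed to 6934 to 8430 CPM in controls and 6776 to 10960 CPM in mutants (median 0.20, 0 of 8 called), and proliferation markers to 584.7 to 806.0 and 510.0 to 754.6 CPM (median 0.01, 0 of 8 called). No T cell, enterocyte, proximal or epithelial marker was at 0 in a whole group, and the part of these cell differences in the sterol gene levels was not tested.

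In the mutant ileum none of the 27 members was called in either direction, where 1.77% of all 14951 genes were called higher and 1.51% lower. The log2 fold change was above 0 for 21, with a median of 0.24 (-0.01 over all genes). No member separated the groups with mutants higher (5.79% of all genes did). An unadjusted p under 0.05 was found in 9 members above 0 (7.84% of all genes) and in Insig2 below 0. DESeq2 called 4 members higher (Cyp51, Fdft1, Insig1 and Acat2), against 2.7% of all genes.

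The members with the largest ileal differences were Insig1 (0.71, SE 0.20, adjusted p = 0.106), Acat2 (0.64, SE 0.19, adjusted p = 0.0866), Fdft1 (0.61, SE 0.21, adjusted p = 0.164) and Cyp51 (0.58, SE 0.17, adjusted p = 0.107). Insig1 was at 48.9, 72.2, 39.3 and 55.5 CPM in ileal controls (NF17, NF29, NF32, NF152) and at 74.3, 69.7, 103.3 and 110.2 CPM in mutants (NFVCT27, NFVCT38, NFVCT153, NFVCT190). Cyp51 was at 179.1, 259.6, 133.2 and 208.6 CPM in controls and 254.8, 301.3, 343.7 and 283.8 CPM in mutants. For both genes control NF29 was the sample that overlapped the mutants.

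NF29 also lay among the mutants for other enzymes. Sqle was at 268.7 CPM in NF29 and at 119.3 to 149.7 CPM in the other controls, against 186.6 to 299.1 CPM in mutants. Lss was at 57.8 CPM in NF29 and 31.5 to 31.96 CPM in the others, against 48.9 to 65.3 CPM in mutants. Mvd was at 37.1 CPM in NF29, 14.4 to 20.8 CPM in the others and 26.2 to 37.1 CPM in mutants. For these 3 genes every mutant was above the 3 other controls.

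Without ileal control NF29, 9 members were called higher (1.58% of all genes were, in that fit). They were Insig1 (0.88, adjusted p = 0.0215), Mvd (0.84, adjusted p = 0.0129), Acat2 (0.82, adjusted p = 0.0188), Fdft1 (0.81, adjusted p = 0.0174), Cyp51 (0.76, adjusted p = 0.0151), Lss (0.73, adjusted p = 0.00857), Mvk (0.66, adjusted p = 0.0375), Nsdhl (0.65, adjusted p = 0.0107) and Pmvk (0.59, adjusted p = 0.0493). Sqle had 0.65 (adjusted p = 0.0611). No other left-out library gave a call among the 27. The labels give no reason to leave NF29 out, and its part was looked at after its values were seen.

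Some other members stayed near 0 in the ileum with and without NF29. Tm7sf2 was at -0.02 (SE 0.14, adjusted p = 0.966), Dhcr7 at -0.14 (SE 0.19, adjusted p = 0.786), Lbr at -0.09 (SE 0.10, adjusted p = 0.75), Scap at -0.01 (SE 0.12, adjusted p = 0.986) and Npc1 at 0.03 (SE 0.12, adjusted p = 0.943). Others were above 0 without being called. Msmo1 was at 0.45 (SE 0.15, adjusted p = 0.136), and at 0.57 without NF29 (adjusted p = 0.0501). Hmgcs1 was at 0.33 (SE 0.18, adjusted p = 0.397) and Fdps at 0.22 (SE 0.20, adjusted p = 0.673). Without NF29 these 2 were at 0.46 and 0.48. Sc5d was at 0.33 in both fits. Srebf2 was at 108.2 ± 19.1 CPM in controls and 129.4 ± 17.9 CPM in mutants (0.24, SE 0.14, adjusted p = 0.449). Insig2 had the lowest ileal value, -0.32 (SE 0.14, adjusted p = 0.268), with 34.0 to 52.7 CPM in controls and 31.9 to 40.2 CPM in mutants. Smooth muscle markers moved with genotype in this tissue: 5 of 10 were called higher, and they summed to 3250 to 4550 CPM in controls and 5145 to 7004 CPM in mutants. Of 8 T and NK cell markers 2 were called lower and all 8 were below 0 (median -1.16), with sums of up to 161.0 CPM in controls and 30.7 to 132.0 CPM in mutants, which overlapped. Markers of the distal small intestine had 0 of 5 called, and their sums, 3715 to 6089 CPM in controls and 2094 to 3377 CPM in mutants, did not overlap. Of 8 enterocyte markers 1 was called lower (15260 to 18440 and 12980 to 17630 CPM). No T cell, muscle, distal or enterocyte marker was at 0 in a whole ileal group. With the muscle score as a covariate 0 members were called, as in the main fit, and 22 genes in all. The muscle sums did not overlap between the genotypes, so this fit can hardly tell the muscle score and genotype apart. The part of the other markers in the member values was not tested.

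**Figure D2:**
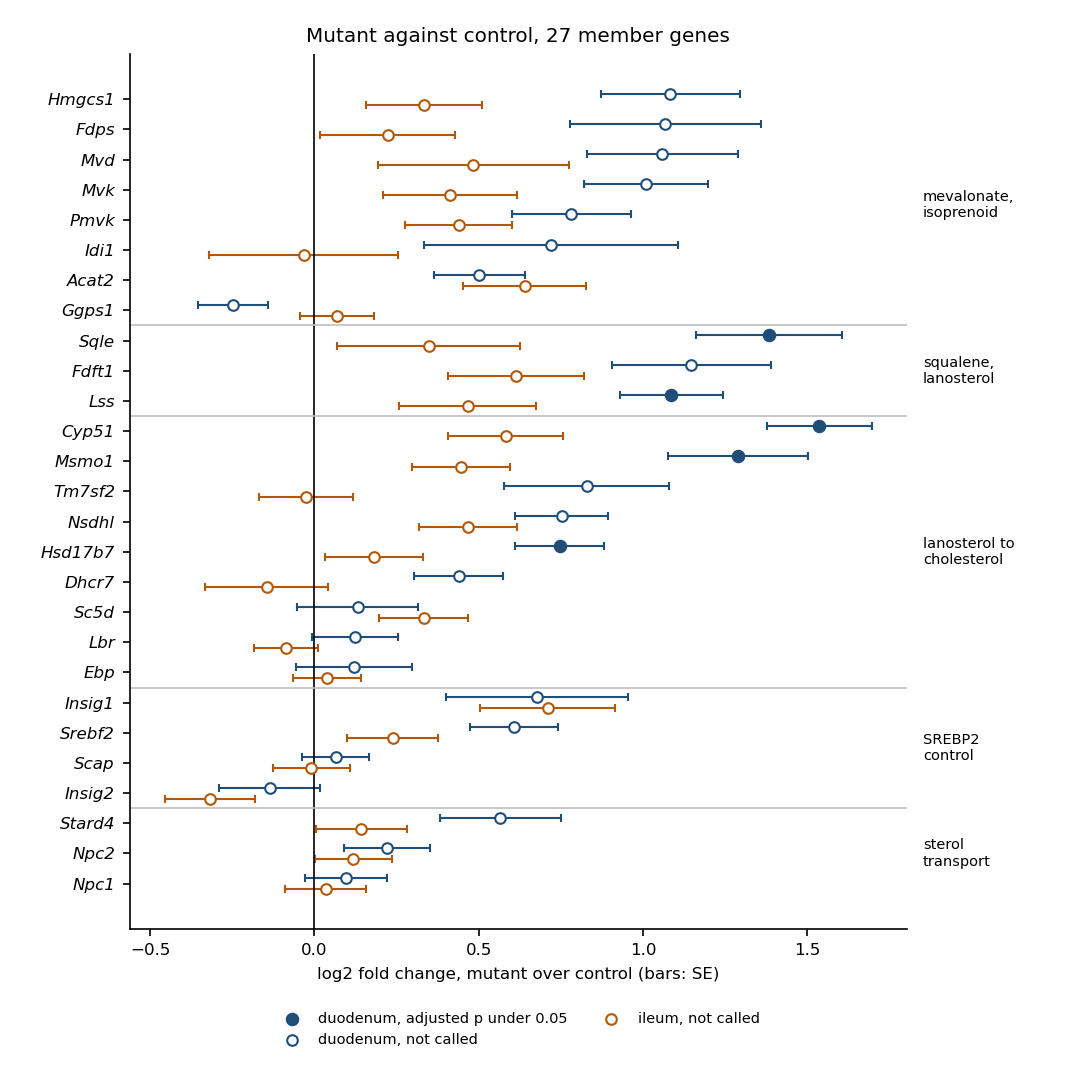
Log2 fold change of mutant over control (horizontal axis) for the 27 members, grouped by role, in the duodenum (blue) and ileum (orange); bars are SE and filled points have an adjusted p under 0.05. The filled points are the 5 duodenal enzymes Sqle, Lss, Cyp51, Msmo1 and Hsd17b7, and no ileal point is filled.

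Whether the genotype effect differed between the tissues was tested as an interaction over all 16 libraries, as the ileal minus the duodenal effect. None of the 27 members was called (0.0441% of all 15882 genes were), and with the animal as a block none was either. The value was below 0 for 23 members, with a median of -0.41 (0.01 over all genes), and 9 had an unadjusted p under 0.05 below 0 (2.05% of all genes), with 1 above 0 (Ggps1). Sqle had the largest (-1.03, SE 0.37, adjusted p = 0.899), followed by Cyp51 (-0.94, SE 0.25, adjusted p = 0.392), Tm7sf2 (-0.84, SE 0.30, adjusted p = 0.884), Fdps (-0.84, SE 0.37, adjusted p = 1) and Msmo1 (-0.83, SE 0.28, adjusted p = 0.778). The called genes of the duodenum were not shown to respond less in the ileum. Insig1 (0.04, SE 0.38) and Acat2 (0.15, SE 0.24), both with an adjusted p of 1, had the values nearest to 0 among the genes with large ileal effects.

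The tissues themselves differed in controls. Of the 27 members 17 were called higher in control ileum than in control duodenum (17.1% of all 14976 genes were) and 1 lower (18.7% of all genes). The median log2 difference was 0.82 (0.01 over all genes). In 17 members every ileal control was above every duodenal control (16.8% of all genes), and in 2, Scap and Ebp, every one was below (17.8%). The control libraries of each tissue also serve in the genotype comparisons, so the tissue and genotype values are not independent and are given side by side only.

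The sterol enzymes were the members with the largest tissue differences. Sqle was higher by 2.41 (SE 0.27, adjusted p = 0.000187), from 32.3 ± 6.5 CPM in control duodenum to 171.4 ± 66.3 CPM in control ileum. Cyp51 was higher by 1.99 (SE 0.18, adjusted p = 6.59e-06), from 49.3 ± 5.2 to 195.1 ± 53.0 CPM. Hmgcs1 was at 363.2 to 566.7 CPM in ileal controls, and at 110.3 to 139.4 CPM in duodenal controls (1.86, SE 0.14, adjusted p = 7.85e-07).

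Msmo1 (1.78, SE 0.19), Fdft1 (1.73, SE 0.18), Fdps (1.66, SE 0.26), Hsd17b7 (1.30, SE 0.15) and Tm7sf2 (1.28, SE 0.14) were also called higher. So were Lss (1.06, SE 0.22), Mvd (0.97, SE 0.28), Nsdhl (0.85, SE 0.17), Lbr (0.46, SE 0.11) and Ggps1 (0.41, SE 0.11). Mvd lost its call without any one of the 4 duodenal controls (adjusted p up to 0.0651). Enzymes that were not called were Idi1 (1.05, SE 0.41, adjusted p = 0.0619), Mvk (0.44, SE 0.20, adjusted p = 0.11), Pmvk (0.39, SE 0.18, adjusted p = 0.107), Sc5d (0.11, SE 0.17, adjusted p = 0.648), Acat2 (0.06, SE 0.18, adjusted p = 0.839), Ebp (-0.24, SE 0.10, adjusted p = 0.0833) and Dhcr7 (-0.32, SE 0.19, adjusted p = 0.196).

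Among the control genes, Srebf2 (0.53, SE 0.13, adjusted p = 0.00745) and Insig2 (0.82, SE 0.17, adjusted p = 0.00223) were higher in the ileum, Insig1 was not called (-0.27, SE 0.17, adjusted p = 0.243), and Scap was lower (-0.31, SE 0.11, adjusted p = 0.0447). Of the 8 fits that left out a library, Scap was called only in the one without duodenal control NF29 (adjusted p up to 0.143 in the others). Stard4 was higher by 1.26 (SE 0.13, adjusted p = 9.58e-06) and Npc1 by 0.50 (SE 0.12, adjusted p = 0.00645), and Npc2 was not called (-0.12, SE 0.12, adjusted p = 0.436). With the animal as a block the count was 17 higher and 4 lower, adding Dhcr7 (adjusted p = 0.0277), Insig1 (0.0456) and Ebp (0.0463) to Scap. That fit called 5897 genes in all, against 5372 in the main fit, where 18.7% of all genes were called lower. Its shares by direction are not given, so these counts are descriptions only. Acinar genes took 6.57 to 14.7% of counts in control duodenum and 0.117 to 0.843% in control ileum, so acinar RNA and tissue cannot be told apart in these libraries.

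**Figure D3:**
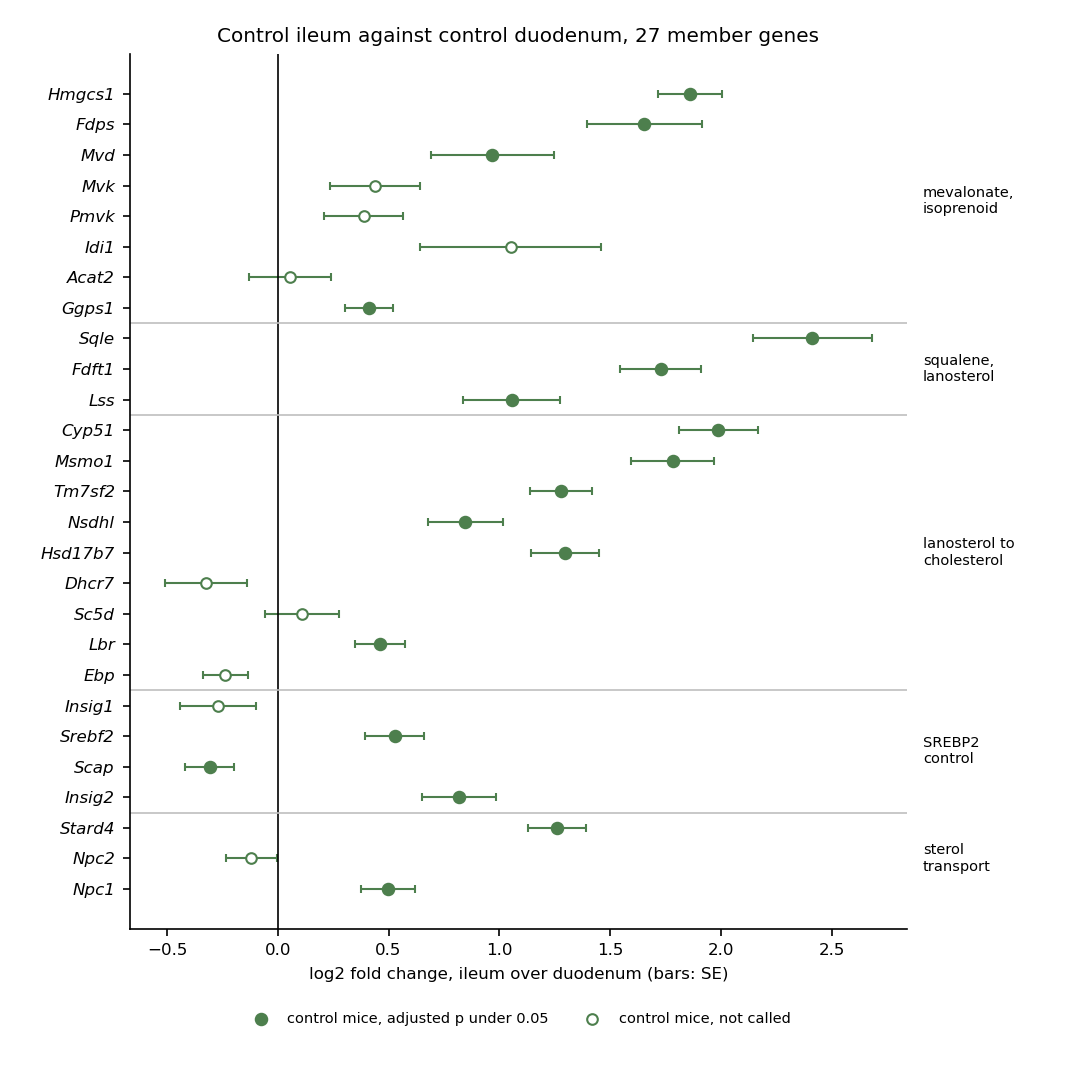
Log2 fold change of control ileum over control duodenum (horizontal axis) for the 27 members, grouped by role; bars are SE and filled points have an adjusted p under 0.05. Sqle (2.41), Cyp51 (1.99) and Hmgcs1 (1.86) lie farthest right, and Scap (-0.31) is the filled point below 0.

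Over the 4 groups, the mean was ordered control duodenum, mutant duodenum, control ileum, mutant ileum, from low to high, for 10 members. Cyp51 was at 49.3 ± 5.2, 143.5 ± 31.8, 195.1 ± 53.0 and 295.9 ± 37.2 CPM in that order, and mutant duodenum and control ileum overlapped. For Hmgcs1 the means were 126.5 ± 12.2, 269.7 ± 82.7, 458.6 ± 83.7 and 584.8 ± 142.8 CPM. Every mutant duodenum was below every control ileum for Hmgcs1, while Lss was level in these 2 groups (39.3 ± 6.1 and 38.2 ± 13.0 CPM). Of the 17 members called higher in control ileum, every mutant duodenum lay below every control ileum in 5 (Hmgcs1, Hsd17b7, Lbr, Insig2 and Ggps1). No share over all genes is given for this count or for the order of means, so both are descriptions only. Mvk (28.1 ± 8.1 and 18.9 ± 6.5 CPM), Pmvk (25.8 ± 5.2 and 19.6 ± 4.4 CPM) and Dhcr7 (40.0 ± 3.9 and 23.5 ± 6.6 CPM) had higher means in mutant duodenum than in control ileum. Summed over the 20 enzymes, the level was 763.3 ± 69.3 CPM in control duodenum, 1301 ± 235 in mutant duodenum, 1717 ± 346 in control ileum and 2205 ± 291 in mutant ileum, given as a description.

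Between genes, levels can be set side by side only per length. The length used was the union of exons over all annotated transcripts of a gene (GENCODE M21). It can exceed the length of the transcripts present, so the order of members is a description only. As mean CPM per kilobase of that length, Ebp was the highest member in control duodenum at 36.8, followed by Hmgcs1 at 27.5, Sc5d at 21.8, Insig1 at 21.1 and Lbr at 20.3. In mutant duodenum Hmgcs1 led at 58.7, ahead of Ebp at 40.1, Insig1 at 33.9 and Cyp51 at 32.5. In control ileum Hmgcs1 stood at 99.8 and Cyp51 at 44.2. Idi1 and Fdps were the lowest in control duodenum, at 0.42 and 0.72, which the shared sequences named above bear on.

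Some animals were high or low for many members. Control NF29 was the highest control in both its tissues for 13 of the 27 members, where 7.5% of all 15882 genes were highest in NF29 in both; among the 13 were Hmgcs1, Sqle, Fdft1, Lss, Cyp51, Dhcr7 and Insig1. Mutant NFVCT153 was the highest mutant in both tissues for 7 members (Hmgcs1, Sqle, Fdft1, Cyp51, Mvd, Mvk and Hsd17b7), against 6.03% of all genes. Ileal control NF32 was the lowest of its group for 18 members, a description only, as no share over all genes is given for it. The mean deviation of the 27 members from the group mean was 0.34 on the log2 scale in ileal NF29, -0.27 in ileal NF32, 0.27 in duodenal NFVCT153 and -0.14 in duodenal NF152. These animals were singled out after their values were seen, and each animal is 1 sample.

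Within groups many but not all enzymes varied with Sqle. Over the 16 libraries, taken as deviations from their group means on the log2(CPM + 0.5) scale, the correlation with Sqle was 0.95 for Fdft1, 0.90 for Mvd, 0.89 for Lss, 0.83 for Hsd17b7, 0.82 for Hmgcs1, 0.81 for Cyp51 and 0.79 for Insig1 and for Mvk. The median over the other enzymes was 0.67. Among them it was 0.39 for Idi1, 0.38 for Sc5d, 0.33 for Lbr, 0.18 for Tm7sf2, 0.15 for Ebp and -0.23 for Ggps1. Outside the enzymes it was 0.51 for Srebf2, -0.06 for Scap and -0.37 for Npc2. These values are a description of libraries that share animals and scaling, and NF29 and NFVCT153 weigh in them.

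**Figure D4:**
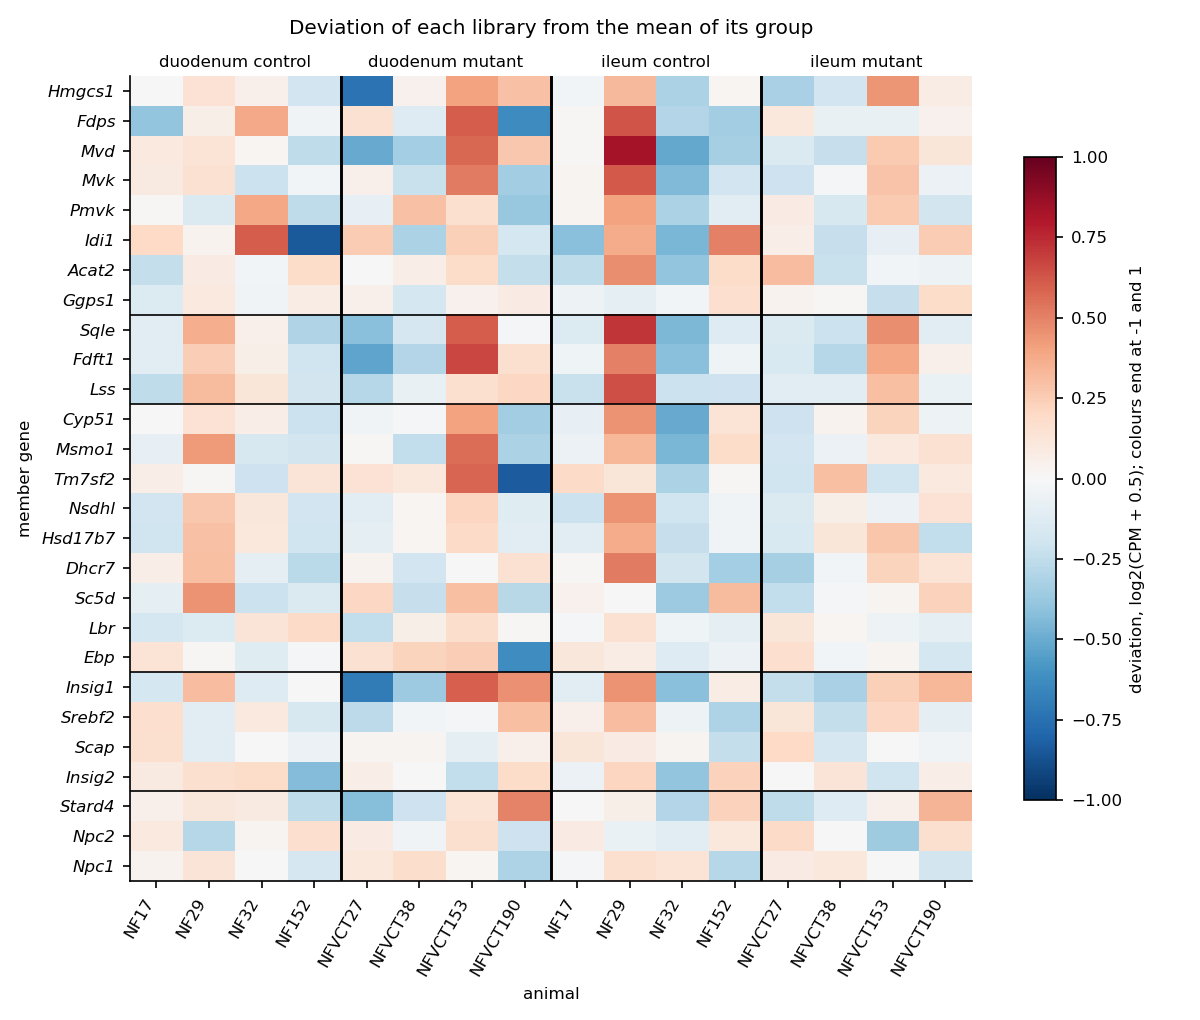
Deviation of each library from its group mean, as log2(CPM + 0.5), for the 27 members (rows, by role) in 16 libraries (columns, by group and animal); red is above and blue below the mean. The columns of ileal control NF29 and duodenal mutant NFVCT153 are mostly red for the enzymes (mean deviations 0.34 and 0.27), and ileal control NF32 is mostly blue (-0.27).

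Neighbouring genes of the pathway were read from 4 further lists. The genes that process SREBP or degrade sterol enzymes had 0 of 12 called by genotype in the duodenum (median -0.01) and in the ileum (median 0.02). The closest to the threshold in the duodenum were the ubiquitin ligase Rnf139 (44.5 to 38.2 CPM, -0.23, SE 0.09, adjusted p = 0.466) and Erlin1 (-0.24, SE 0.11, adjusted p = 0.607). Between control tissues 2 of the 12 were higher and 3 lower in the ileum, near the shares over all genes (17.1% and 18.7%); among them were Srebf1, the gene of the related factor SREBP1 (-0.56, SE 0.12, adjusted p = 0.00289), Aup1 (-0.54, SE 0.10, adjusted p = 0.000776) and Rnf145 (0.64, SE 0.14, adjusted p = 0.00315).

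The branch that leads from isoprenoids to ubiquinone, dolichol and prenylated proteins had 0 of 13 genes called by genotype in either tissue (medians 0.09 in the duodenum and 0.03 in the ileum). Pdss1, which builds the ubiquinone side chain, was at 33.6 and 38.4 CPM in control and mutant duodenum (0.18, SE 0.11, adjusted p = 0.727). In control tissues 1 of the 13 was lower in the ileum (18.7% of all genes), Rabggta, a subunit of the enzyme that prenylates Rab proteins (-0.69, SE 0.15, adjusted p = 0.00294), and none was higher.

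Among the redox partners and other sterol-linked genes, 0 of 13 tested were called by genotype in the ileum (median 0.14). In the duodenum Mmab (0.71, SE 0.19, adjusted p = 0.169) and Acss2, which makes acetyl-CoA from acetate (0.48, SE 0.12, adjusted p = 0.16), did not pass. In the ileum the nearest were Acly, which makes acetyl-CoA from citrate (187.5 to 277.3 CPM, 0.55, SE 0.14, adjusted p = 0.0557), and Por, the electron donor of Cyp51 and Sqle (70.4 to 105.7 CPM, 0.56, SE 0.15, adjusted p = 0.0669).

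Between control tissues 6 of 14 were lower in the ileum (18.7% of all genes) and 3 were higher (17.1%), with a median of -0.01. Por was lower (-2.13, SE 0.23, adjusted p = 7.08e-05), at 309.7 CPM in control duodenum and 70.4 CPM in control ileum. Cyb5r3, a reductase that passes electrons to cytochrome b5, was lower too (-2.42, SE 0.19, adjusted p = 8.58e-07). The donors Por and Cyb5r3 and the enzymes Cyp51, Sqle and Msmo1 differed between the tissues in opposite directions.

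Genes of sterol esterification and transport had 0 of 10 called by genotype in the duodenum (median 0.01) and in the ileum (median 0.16). Soat1, which esterifies cholesterol, was nearest in the ileum (51.2 to 64.4 CPM, 0.31, SE 0.10, adjusted p = 0.137). In control tissues 7 of the 10 were lower in the ileum (18.7% of all genes) and none higher (17.1%; median -0.41), among them Lipa, the lysosomal acid lipase (-1.39, SE 0.27, adjusted p = 0.00438), and the sterol carrier Stard5 (-1.04, SE 0.17, adjusted p = 0.000398). In the interaction test 0 genes of the 4 lists were called.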

How the data were processed

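The 27 members and the other gene lists were chosen with earlier results of these data known, so none of them gives independent support. Per the labels, ribosomal RNA was removed from total RNA and stranded libraries were amplified by PCR. The submitters' processing notes name STAR 2.5.3a, HTSeq 0.6.1p1, Bowtie2 2.2.8, cutadapt 1.10, bcl2fastq 2.20.0.422 and the build mm39. Which strand was counted, and with which gene annotation, is not given in the sources used here. The authors deposited read counts without normalisation, for 55359 Ensembl genes in 16 libraries. Symbols matched 52083 identifiers, which held 98.3% of counts.

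Counts were tested in R 4.3.3 with edgeR 4.0.16 (TMM, default filter on low counts by group, robust quasi-likelihood F test, Benjamini-Hochberg over all genes tested), on the 8 libraries of each tissue for genotype, on all 16 for the interaction and on the 8 control libraries for tissue. The procedure was tested on simulated data. Alternatives were DESeq2 1.42.0, limma 3.58.1 (voom), other size factors, no filter, leaving out each library, a shared spread, and the animal as a block. Acinar and muscle scores were also used, and the acinar genes or both acinar-rich libraries were left out. Each animal gave both tissues, so the animal pairs its libraries by design. The deviations of the 2 libraries of 1 animal had a correlation over genes of 0.124 (NF29) to 0.361 (NF17). The highest correlation with another animal was 0.241, above the value of some animals, so the pairing did not show in all of them. Whether the animals of a group shared litters is not stated. No 2 libraries of a group agreed within sampling noise. All 27 members are named, of each other list up to 3 genes of smallest p per comparison, and Neurog3; 1 gene of the redox and sterol-linked list is not reported here. Lengths and sequence overlaps came from GENCODE M21 and promoters from RefSeq (GRCm38.p6), another build than mm39, so no position is tied to a read.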

Additional observations from a re-analysis of the deposited data

Results flagged for a closer look

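In 8 of the 108 groups of 4 libraries (27 members in 4 groups), 1 library lay so far from the other 3 that its gap, divided by the range of the group, passed Dixon's 95% limit. Chance alone flags about 1 group in 20, so a number near this is no pattern in itself.

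Lss was at 57.8 CPM in ileal control NF29, against 31.5 to 31.96 CPM in the other ileal controls. Its value in ileal mutant NFVCT153 was 65.3 CPM, against 48.9 to 50.5 CPM in the other mutants. Sqle in the same mutant ileum was at 299.1 CPM, against 186.6 to 201.5 CPM. Duodenal control NF29 stood out for Sc5d (142.6 CPM, others 89.7 to 97.7 CPM) and for Msmo1 (78.8 CPM, others 51.5 to 55.1 CPM).

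The other 3 were low values in mutant duodenum. Ebp was at 58.6 CPM in NFVCT190, the library with the highest acinar share, against 100.3 to 106.9 CPM. Scap was at 61.6 CPM in NFVCT153, against 67.1 to 68.2 CPM. Ggps1 was at 21.9 CPM in NFVCT38, against 25.4 to 26.1 CPM. The causes were not tested.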

How the results depend on the processing

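Over all alternatives the 27 members gave 1728 values, of which 1631 stayed on the same side of the threshold, 39 lost a call and 58 gained one. No called value changed sign; 44 values that were called in neither fit did. For the duodenal genotype effect the number of genes called moved from 58 to 297 with DESeq2, 169 with no filter on low counts, 151 with a shared spread of all 16 libraries and 31 without both acinar-rich libraries, and ran from 27 to 61 when single libraries were left out. The members called higher moved from 5 to 12 with DESeq2, 12 with no filter and 11 with the shared spread. They were 7 with the acinar genes left out (65 genes called), 2 with the acinar score and 1 without both acinar-rich libraries. When single libraries were left out they ran from 1 to 5. No share of all genes called higher is given for the fits with no filter, with the shared spread or without the acinar genes. Their member counts are descriptions only. For the ileal effect, 490 genes became 880 with DESeq2, 1096 with no filter and 22 with the muscle score, and 272 to 472 without single libraries; the members called went from 0 to 4 with DESeq2, to 7 with no filter and to 9 without control NF29 (0 to 9 over the left-out libraries). For the interaction, 7 genes became 38 with DESeq2 and 15 with no filter, and 3 to 13 without single libraries. For control tissues, members called lower went from 1 to 0 with no filter and ran from 0 to 2 without single libraries. With the animal as replicate block, 16 genes and no member were called in the interaction. In the tissue comparison that fit had 17 members higher and 4 lower, with 5897 genes called in all. No paired fit was possible within a tissue, because no animal has both genotypes. The causes of these moves were not tested. Total counts of 8213889 and more left at least 10 counts for every member in every library (Idi1 lowest).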
